A study of Mus musculus with 20 samples.

Results

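The brains of J27a mice were compared with the brains of Wild type mice, with 3 libraries in each group, out of 20 brain libraries in 7 groups. Every gene with enough reads was included: 16063 of the 23845 genes in the table were tested, and of the rest 4425 had a count of 0 in each of the 20 libraries. The series measured poly(A)-selected RNA from brains of C57/Bl6J mice kept on a normal diet, and the submitters describe the mutants as mice lacking single isoforms, studied for exon usage. The J27a group is labelled with the genotype J27a, and the Wild type group with c57 in its titles. A further 14 mutant libraries came from J27b (3), J17a (3), J17b (2), J2 lf/lf (3) and J1 lf/lf (3). What the codes stand for is not stated in the labels, which leaves unstated whether a code names the isoform that was deleted or the one still made, and age and sex are not given either. The labels also do not tell whether 1 animal or several supplied a group; the p-values therefore measure only how far these samples spread, and that spread may be technical.

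The c-Jun N-terminal kinases (JNKs) are mitogen-activated protein kinases that are switched on by stress, cytokines and injury through a cascade of upstream kinases held together by scaffold proteins, and switched off by phosphatases. In mammals they are encoded by Mapk8 (JNK1), Mapk9 (JNK2) and Mapk10 (JNK3), and all of these genes are active in brain, where JNK signalling acts on transcription factors such as c-Jun, on microtubule proteins of growing and mature neurons, and on neuronal death. Transcripts of Mapk8 and Mapk9 contain either of 2 alternative neighbouring exons that encode part of the kinase domain, and the choice between them alters which substrates the kinase binds.

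That pair of exons in Mapk9 is shown because the submitters describe mice lacking single isoforms and because the pair shows how alike alternative forms of a JNK are. The labels do not state what the codes stand for, so no code is tied to this gene here. Mapk9 lies on chromosome 11 (mm10, 49846751 to 49886421, plus strand). In the GENCODE M21 transcripts the exons are each 72 bases long, stand as exon 7 of 12, are 356 bases apart, and occur in 4 and 3 of the 7 coding transcripts. The sequences are written 5′ to 3′ on the plus strand, and capitals mark the 25 bases that differ, which leaves 65.3% identical.
upstream exon, chr11:49873836-49873907: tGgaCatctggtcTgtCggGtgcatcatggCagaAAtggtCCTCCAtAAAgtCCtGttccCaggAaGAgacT
downstream exon, chr11:49874264-49874335: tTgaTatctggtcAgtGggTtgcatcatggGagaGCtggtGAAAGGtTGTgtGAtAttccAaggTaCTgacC
The deposited values are sums per gene, so they do not show which of these exons the transcripts of J27a or Wild type brains contained, and no exon is assigned to a form here.

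The J27a libraries held between 25161731 and 28559222 estimated counts and the Wild type libraries between 24736263 and 33828755, with factors of the trimmed mean of M-values (TMM, a scaling for library composition) between 0.975 and 1.03 over the series. Levels are given as CPM, read counts scaled to a common library total with that factor. Wild type 3 stood apart from its group: a chi-square per degree of freedom over genes was 9.63 to 14 between the J27a libraries, 12.5 between Wild type 1 and 2, and 51.6 and 62.1 between Wild type 3 and those 2. Transcripts of the anterior pituitary, such as growth hormone (Gh), came from single libraries, with 12.9, 0.0756 and 459 CPM in J27a and 0.341, 1008 and 5.27 CPM in Wild type. The number in a sample's title was above 10 for all J27a libraries and up to 10 for all Wild type libraries, so this number and the genotype cannot be told apart in the comparison. The labels do not say what the number stands for.

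No gene passed an adjusted p of 0.05 in J27a against Wild type with edgeR's quasi-likelihood test: 0 of 16063 genes (0%), with a smallest adjusted p of 0.771. At an unadjusted p under 0.05 there were 777 genes (4.84%), of which 389 (2.42%) were higher and 388 (2.42%) lower in J27a. DESeq2 called 5 genes and limma on log2 TPM, with either pseudocount, called 0. Fold changes were centred, with 49.8% of genes positive, 50.2% negative and a median log2 fold change of -0.000589, with the 5th and 95th percentiles at -0.40 and 0.48. The 3 J27a libraries were above all 3 Wild type libraries for 669 genes (4.16%) and below them for 618 (3.85%). In what follows, "higher" and "lower" therefore describe levels in these libraries, none of which passed the test against Wild type, and every gene named against Wild type had an edgeR adjusted p of at least 0.771.

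**Figure D1:**
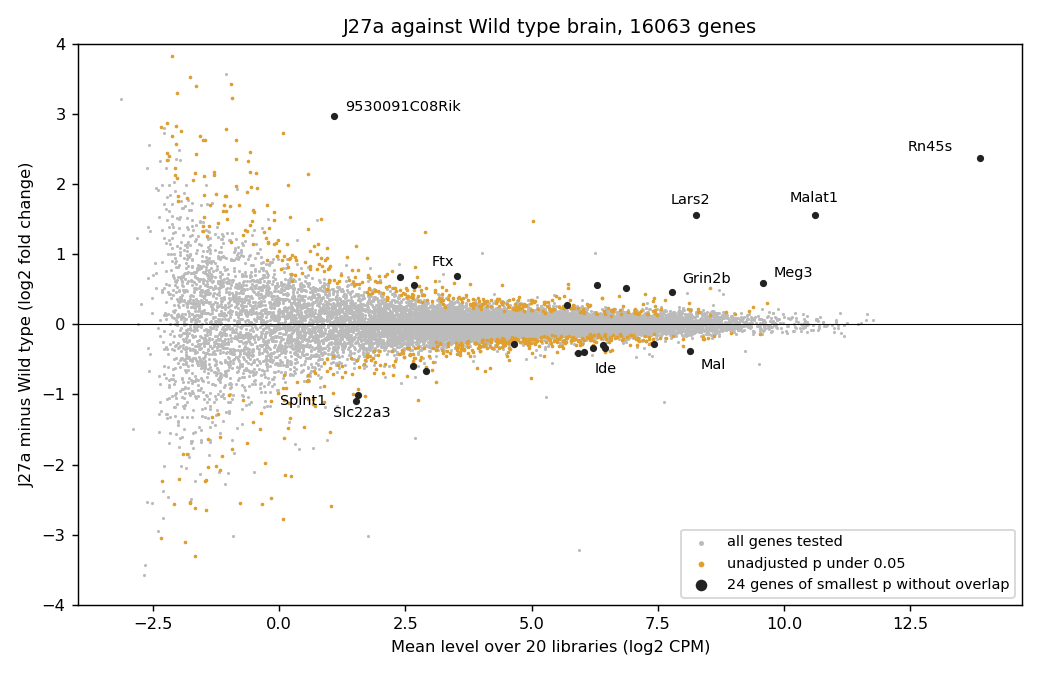
Log2 fold change of J27a minus Wild type against the mean level over 20 libraries (log2 CPM) for the 16063 genes tested; 11 genes lie outside the axis of ±4. Orange points have an unadjusted p under 0.05, and black points are the 24 genes of smallest p whose libraries did not overlap; Rn45s, Malat1 and Lars2 stand out at high levels.

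RNAs that do not code for protein were frequent among the genes with higher levels in J27a. Among genes with a position in GENCODE M21, which 27 of the genes higher and 14 of those lower at an unadjusted p under 0.05 lacked, 12.2% (44 genes) of the higher ones are annotated as noncoding, against 1.87% (7 genes) of the lower ones and 3.77% (578 genes) of those tested. Malat1, a nuclear RNA of splicing speckles, stood at 3095, 1914 and 2331 CPM in J27a, against 919.9, 642 and 926 CPM in Wild type. The lowest J27a library was above the highest Wild type library by a wide margin, and the log2 fold change was 1.56 ± 0.36 (SE; edgeR unadjusted p = 0.00068). Rn45s, the precursor of the ribosomal RNAs, took 2.98%, 2% and 2.51% of the counts in J27a and 0.448%, 0.666% and 0.365% in Wild type. As a repeat with many near-identical copies it is uncertain as a single gene; its log2 fold change was 2.37 ± 0.41 (SE).

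Lars2, the gene of the mitochondrial leucyl-tRNA synthetase, had 542, 387 and 385 CPM in J27a against 149, 185 and 109.8 CPM in Wild type, a log2 fold change of 1.57. Over the 20 libraries it was highest in J17b 2 (1064 CPM) and lowest in J1 lf/lf 1 (81.3 CPM). The same libraries were highest and lowest for Rn45s (54698 and 3066 CPM). How far the reads counted for Lars2 come from its messenger RNA was not tested. Kcnq1ot1, an imprinted RNA antisense to the potassium channel gene Kcnq1, had 72.2, 31.5 and 53.1 CPM in J27a against 18.1, 12.7 and 25.8 CPM in Wild type. The sources used here do not give a strand setting for the counting, so reads of Kcnq1ot1 and of Kcnq1 cannot be told apart. Meg3, a maternally expressed RNA from the imprinted Dlk1 region, had 888, 877 and 942 CPM in J27a and 692, 551 and 548 CPM in Wild type, without overlap. Ftx, from the X-inactivation centre, had 15.4, 14.9 and 13.7 CPM in J27a and 8.56, 9.19 and 9.59 CPM in Wild type, and Miat had 82.1, 93.6 and 99.5 CPM in J27a and 79.7, 58.7 and 47.7 CPM in Wild type. For Miat only a narrow gap separates the groups, between J27a 1 and Wild type 1. The predicted gene 9530091C08Rik had 6.81, 1.59 and 4.75 CPM in J27a and 0.546, 0.325 and 0.833 CPM in Wild type.

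A list of 14 nuclear-retained noncoding RNAs, chosen after these values had been seen and therefore not tested, had 13 positive and 1 negative fold change with a median of 0.44. In J27a 8 of its members were above Wild type without overlap. The 4.16% of all genes is no measure for that count, since the members were picked with their values known. Neat1, the backbone of nuclear paraspeckles, had 84.4, 92.9 and 81.1 CPM in J27a and 72.4, 67.9 and 59.5 CPM in Wild type, and Snhg11 had 428, 423 and 441 CPM in J27a and 326, 238 and 342 CPM in Wild type. The imprinted RNAs Peg13 and Rian did not separate the groups: Peg13 had 526, 542 and 521 CPM in J27a against 515, 546 and 499 CPM in Wild type, and the log2 fold change of Rian was -0.02 with a 95% interval of -0.18 to 0.13.

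The levels of Rn45s, Malat1 and Lars2 were higher above a title number of 10 than up to 10 in the other mutant lines as well. The labels give no boundary at 10. The cut falls within J17a, between J17a 1 (6560 CPM of Rn45s) and J17a 2 (18290 CPM), where Rn45s itself changes. The ranges on the 2 sides of it are therefore a description, and their separation was not tested. Rn45s lay between 17321 and 54698 CPM in the 7 libraries of other lines numbered above 10 and between 3066 and 6718 CPM in the 7 numbered up to 10; the J27a libraries, at 20169 to 30554 CPM, lay within the first range and Wild type, at 3582 to 6658 CPM, within the second. Malat1 was at 1159 to 4698 CPM in other lines above 10 and at 593 to 1147 CPM in those up to 10, and Lars2 at 325 to 1064 CPM in other lines above 10 and at 81.3 to 189.7 CPM in those up to 10. For Kcnq1ot1 the ranges overlapped, at 22.6 to 103 CPM in other lines above 10 and 11.9 to 27.1 CPM in those up to 10. Meg3, Ftx, Miat and Snhg11 did not follow the number in this way. J2 lf/lf, numbered up to 10, overlapped J27a for Meg3 (831 to 939 CPM in J2 lf/lf, 877 to 942 CPM in J27a). It also did for Miat (95.6 to 112 CPM in J2 lf/lf, 82.1 to 99.5 CPM in J27a) and Snhg11 (366 to 454 CPM in J2 lf/lf, 423 to 441 CPM in J27a). For Ftx it did not (10.3 to 13.5 CPM in J2 lf/lf, 13.7 to 15.4 CPM in J27a). The median of the other lines was 731 CPM above 10 and 828 CPM up to 10 for Meg3, 10.7 CPM above 10 and 10.96 CPM up to 10 for Ftx, 74.7 CPM above 10 and 81.2 CPM up to 10 for Miat, and 347 CPM above 10 and 368 CPM up to 10 for Snhg11. Against the mean of the 5 other mutant lines, a comparison that shares the J27a libraries with the one above, Rn45s had a log2 fold change of 1.07, Malat1 0.73, Lars2 0.68 and Meg3 0.22, none with an edgeR adjusted p under 0.453. With a term for title number in the fit, the log2 fold change against Wild type was 0.934 for Rn45s, 0.91 for Malat1, 0.558 for Lars2 and 0.79 for Kcnq1ot1, while Meg3 had 0.466 and Ftx 0.708.

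**Figure D2:**
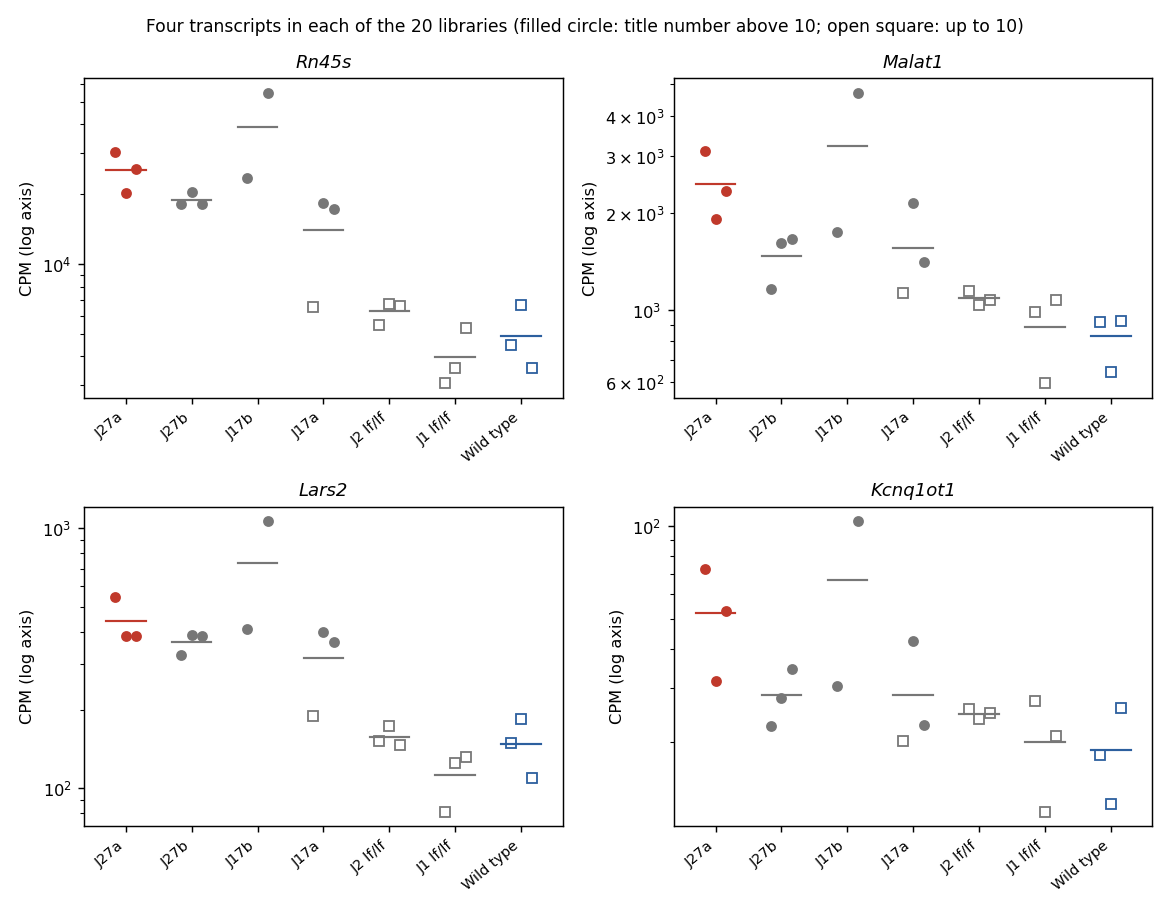
CPM on a log axis for Rn45s, Malat1, Lars2 and Kcnq1ot1 in each of the 20 libraries, by group, with the group mean as a line; filled circles have a title number above 10 and open squares up to 10. J27a (20169 to 30554 CPM of Rn45s) lies with the other filled circles and above Wild type (3582 to 6658 CPM).

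The other genes among the 12 of smallest p that were higher in J27a without overlap included protein-coding genes. Vegfa, the vascular endothelial growth factor, had 56.9, 55.3 and 55.3 CPM in J27a and 45.5, 47.4 and 45.2 CPM in Wild type. The libraries of each group lay close together, and the log2 fold change was 0.28 ± 0.07 (SE). Leng8 had 135, 139 and 128 CPM in J27a and 110.4, 88.9 and 82.8 CPM in Wild type, and Grin2b, a subunit of the NMDA type of glutamate receptor, had 258, 248 and 302 CPM in J27a and 223, 199 and 163 CPM in Wild type. Grin2b kept its direction against the other lines (log2 fold change 0.34, edgeR unadjusted p = 0.0017, adjusted 0.453). Crispld1 was at 7.39, 7.97 and 9.27 CPM in J27a and 5.05, 5.82 and 5.75 CPM in Wild type, and Anapc15, a component of the anaphase-promoting complex, at 5.38, 6.08 and 5.40 CPM in J27a and 3.92, 3.49 and 3.09 CPM in Wild type. Anapc15 ranged from 4.15 to 8.28 CPM in the other lines, which takes in all 3 J27a values and lies above all Wild type values.

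Among the lower genes, Slc22a3, an organic cation transporter that takes up monoamines, had 1.15, 2.15 and 1.99 CPM in J27a and 3.65, 3.31 and 3.69 CPM in Wild type, a log2 fold change of -1.01 ± 0.25 (SE). The gap between the groups is wider than the range within either. Klhl13, an adaptor of a ubiquitin ligase, had 49.3, 51.6 and 46.8 CPM in J27a and 57.7, 59.2 and 79.4 CPM in Wild type, and Necab2, a neuronal calcium-binding protein, had 54.3, 52.1 and 55.3 CPM in J27a and 64.8, 70.2 and 78.3 CPM in Wild type. Both were also below each library of the other lines, at 52.6 to 69.2 CPM for Klhl13 and 56.2 to 80.2 CPM for Necab2. Timp3, an inhibitor of extracellular proteases, was at 147, 151 and 149 CPM in J27a and 162, 175 and 207 CPM in Wild type. Ctnna1, which links cadherins to actin, was at 76.7, 76.4 and 72.7 CPM in J27a and 82.6, 93.8 and 101 CPM in Wild type.

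Several further genes had lower levels in J27a. Mina stood at 5.56, 4.50 and 6.18 CPM in J27a and 7.44, 8.19 and 10.1 CPM in Wild type, and Gpr155 at 68.5, 67.0 and 67.2 CPM in J27a and 75.3, 79.0 and 101 CPM in Wild type. Sike1 was lower in J27a (21.01 to 23.0 CPM) than in Wild type (25.5 to 27.8 CPM), and so was the RNA Snhg6 (5.21 to 5.49 CPM in J27a, 7.61 to 8.84 CPM in Wild type). In the other lines Snhg6 ranged from 4.38 to 7.58 CPM, which takes in all J27a values and lies below all Wild type values. Spint1, a membrane inhibitor of serine proteases in epithelia, had 1.87, 1.51 and 1.87 CPM in J27a and 3.31, 5.73 and 2.10 CPM in Wild type. Krt18, an epithelial keratin, had 0.753, 1.10 and 1.02 CPM in J27a and 2.46, 4.61 and 1.19 CPM in Wild type. With 1 library left out the log2 fold change ran from -1.37 to -0.63 for Spint1 and from -1.89 to -0.94 for Krt18. The highest Wild type value of both genes was in Wild type 2, the library with 1008 CPM of Gh, and a link between them was not tested. H2-Eb1, a class II histocompatibility gene, had 2.01, 1.13 and 2.84 CPM in J27a and 3.10, 4.61 and 4.12 CPM in Wild type.

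The JNK genes themselves had small fold changes at the level of the whole gene. Mapk9 had 292, 298 and 306 CPM in J27a and 303, 293 and 360.4 CPM in Wild type, and the groups overlapped. Its log2 fold change was -0.09 with a 95% interval of -0.66 to 0.47. That interval rests on the spread within all 7 groups, and J2 lf/lf ranged from 58.1 to 177 CPM. Without Wild type 3 the log2 fold change of Mapk9 was 0.003. Mapk8 had 112, 112 and 129.8 CPM in J27a and 118, 109 and 140.4 CPM in Wild type (log2 fold change -0.05, interval -0.24 to 0.13; 0.057 without Wild type 3). Mapk10 had 396, 378 and 422 CPM in J27a and 393, 385 and 383 CPM in Wild type (0.04, interval -0.09 to 0.18; -0.111 with a term for title number in the fit). Per length, in the deposited TPM values (counts scaled by transcript length and library), Mapk9 averaged 155 ± 3.20 in J27a and 169 ± 27.6 in Wild type, Mapk10 131 ± 6.97 in J27a and 129 ± 5.48 in Wild type, and Mapk8 49.1 ± 4.16 in J27a and 52.0 ± 9.49 in Wild type (SD, n = 3 each). In both groups Mapk9 was thus the highest of these genes and Mapk8 the lowest.

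The steps above JNK also gave small fold changes. Of 19 upstream kinases 12 had positive and 7 negative fold changes with a median of 0.03. Map2k4 and Map2k7, the kinases that phosphorylate JNK directly, had 218, 220.4 and 223 CPM (Map2k4) and 85.5, 88.3 and 86.5 CPM (Map2k7) in J27a, against 221, 207 and 275 CPM (Map2k4) and 88.0, 93.4 and 72.5 CPM (Map2k7) in Wild type. Map3k12, the dual leucine zipper kinase that relays axon damage to JNK, was the only member past an unadjusted p of 0.05, at 119, 116 and 114 CPM in J27a and 112, 109.7 and 91.8 CPM in Wild type. Its groups did not overlap, but the gap between them is smaller than the range within Wild type. Of 8 scaffolds 6 were positive, with a median of 0.05 (-0.03 to 0.09 with 1 library left out), and Mapk8ip1, Mapk8ip2 and Mapk8ip3 each overlapped between groups: Mapk8ip1 had 435, 404 and 395 CPM in J27a and 425, 438 and 273 CPM in Wild type.

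Targets and brakes of the pathway gave at most 1 member a list past an unadjusted p of 0.05, beside 4.84% of all genes. Among 12 MAP kinase phosphatases, 7 positive and 5 negative, it was Dusp16, a phosphatase that acts on JNK, with 19.3, 17.9 and 16.9 CPM in J27a and 19.9, 22.3 and 22.2 CPM in Wild type (log2 fold change -0.25, edgeR adjusted p = 0.959). Among 12 transcription factors of the AP-1 and ATF families, 9 positive and 3 negative with a median of 0.14, it was Fosl2, at 44.4, 37.7 and 44.3 CPM in J27a and 39.3, 36.1 and 25.6 CPM in Wild type; the groups overlapped. The median of this list turned to -0.04 without J27a 3 and to -0.01 without Wild type 3. Jun itself had 58.2, 56.1 and 49.8 CPM in J27a and 68.4, 68.0 and 51.3 CPM in Wild type. None of 15 JNK substrates of the neuronal cytoskeleton passed that level; doublecortin (Dcx) had 13.9, 22.7 and 26.2 CPM in J27a and 18.9, 16.8 and 22.5 CPM in Wild type. Of 14 cell death genes, 8 positive and 6 negative with a median of 0.055, none did either. In this list 2 members were higher and 0 lower without overlap, beside 4.16% higher and 3.85% lower of all genes. They were the apoptosis genes Casp9 (28.9 to 31.2 CPM in J27a, 25.02 to 28.1 CPM in Wild type) and Bcl2l11 (7.03 to 7.97 CPM in J27a, 6.11 to 6.53 CPM in Wild type).

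**Figure D3:**
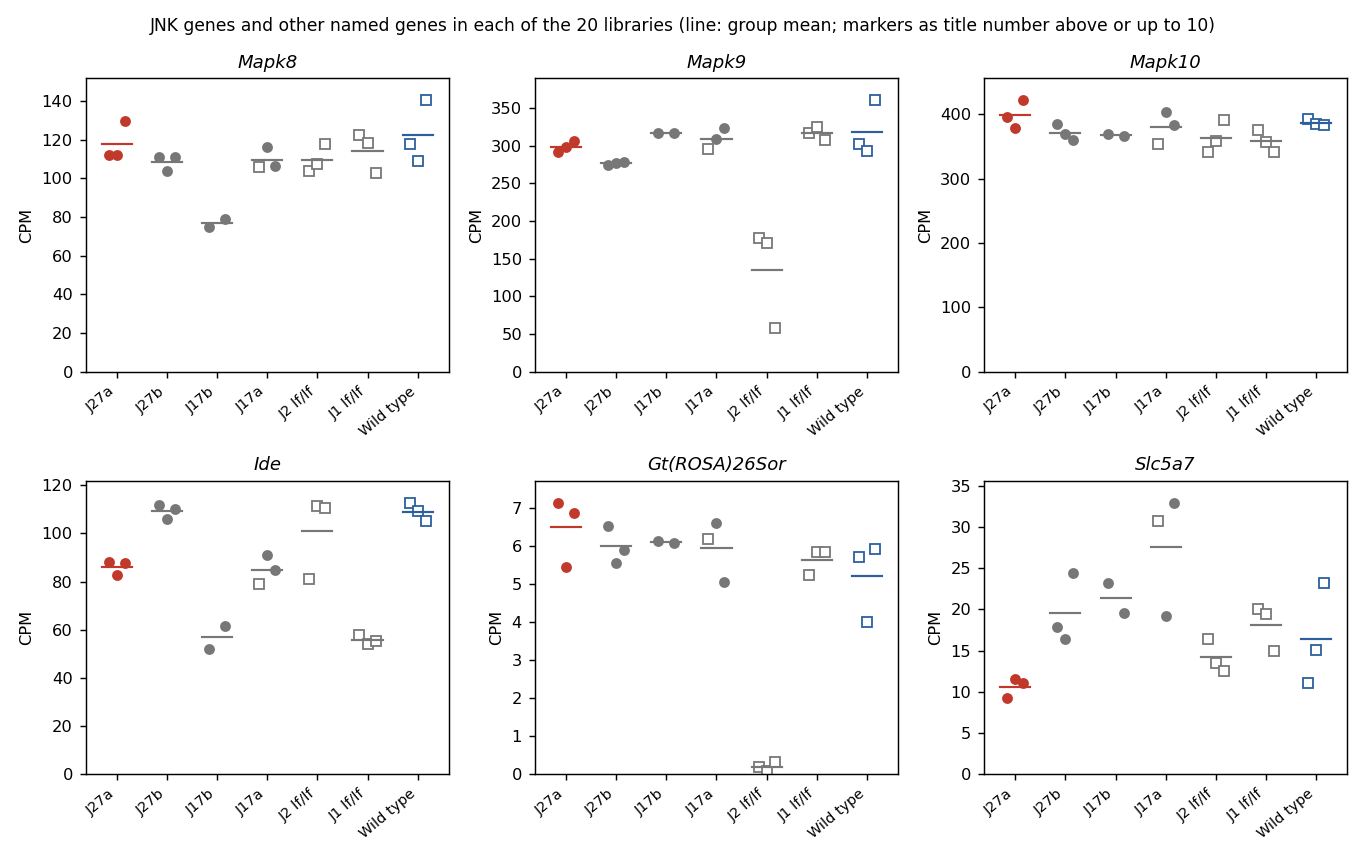
CPM in each of the 20 libraries on axes that start at 0 for Mapk8, Mapk9, Mapk10, Ide, Gt(ROSA)26Sor and Slc5a7, by group, with the mean as a line; markers show the title number, filled above 10 and open up to 10. J27a lies beside Wild type for the JNK genes, below it for Ide (82.7 to 88.3 CPM in J27a, 105 to 113 CPM in Wild type), and far above J2 lf/lf for Gt(ROSA)26Sor.

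Insulin and growth factor signalling, to which JNK is linked in metabolic tissue, had 13 positive and 7 negative members of 20 with a median of 0.06. The member past an unadjusted p of 0.05 was Ide, the insulin-degrading enzyme, with 88.3, 82.7 and 87.7 CPM in J27a and 113, 109 and 105 CPM in Wild type. No J27a value reached a Wild type value, and J27b lay at 106 to 112 CPM, while the J1 lf/lf and J17b libraries were lower than J27a in the plot of levels by library. J17a, at 79.1, 91.1 and 84.9 CPM, and J2 lf/lf, at 81.2 to 111 CPM, had ranges that take in all J27a values. Igf1r, the IGF-1 receptor, had 122, 116 and 119 CPM in J27a and 113, 114 and 102 CPM in Wild type, and the insulin receptor Insr had 79.7, 79.6 and 89.0 CPM in J27a and 75.6, 77.2 and 79.8 CPM in Wild type. Of 7 genes listed because they can differ between C57 substrains, Ide, its chromosome 19 neighbour Btaf1 and Wdfy1 were lower without overlap, beside 3.85% of all genes, and Entpd4 was higher without overlap by a very narrow gap (162.59 to 167 CPM in J27a, 157 to 162.58 CPM in Wild type). Btaf1 had 56.5, 53.6 and 58.4 CPM in J27a and 67.6, 66.4 and 62.2 CPM in Wild type, and Wdfy1 had 14.9, 15.2 and 13.04 CPM in J27a and 15.5, 19.5 and 18.6 CPM in Wild type. The others included Nnt, at 16.5 to 18 CPM in J27a and 15.8 to 19.6 CPM in Wild type.

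Genes of striatal projection neurons, the principal cells of the striatum, leaned lower. Of 18 members 1 was positive and 17 negative, with a median log2 fold change of -0.29 beside -0.000589 over all genes. Without overlap between groups 8 were lower, beside 3.85% of all genes, and 1 had an unadjusted p under 0.05. That member was Drd2, the D2 dopamine receptor, with 11.5, 11.8 and 13.4 CPM in J27a and 15.7, 21.4 and 21.2 CPM in Wild type (log2 fold change -0.67, edgeR adjusted p = 0.959). Pde10a, the phosphodiesterase of these neurons, had 224, 234 and 222 CPM in J27a and 294, 294 and 309 CPM in Wild type. Penk, the enkephalin precursor, had 125, 120.3 and 116 CPM in J27a and 132, 160.3 and 163 CPM in Wild type.

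Other genes of the same cells did not separate. Ppp1r1b, which encodes DARPP-32, had 215, 225 and 204 CPM in J27a and 272, 289 and 163 CPM in Wild type, and Tac1, the substance P precursor, had 22.2, 26.6 and 21.1 CPM in J27a and 24.5, 25.2 and 36.0 CPM in Wild type. Foxp1, a transcription factor also present in cortex, was the positive member, at 98.0, 106 and 118 CPM in J27a and 105, 103 and 110.5 CPM in Wild type. The 14 libraries of other lines spread around both groups: the median of the list in a library, relative to the genes' medians over 20 libraries on the log2 scale, was -0.23, -0.19 and -0.18 in J27a and 0.07, 0.16 and 0.04 in Wild type, while other lines ran from -0.33 to 0.75. In 15 of the 18 genes all J27a libraries were below the median of the other lines, and in 0 were they below every one of them. The share of all genes that meet the first condition was not computed, so that count has no background beside it. With a term for title number the median of the list was 0.45 and the log2 fold change of Drd2 was 0.285, both turned in direction. In bulk tissue, fewer cells of a type, less RNA per cell and a different share of a region in the dissected piece cannot be told apart.

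**Figure D4:**
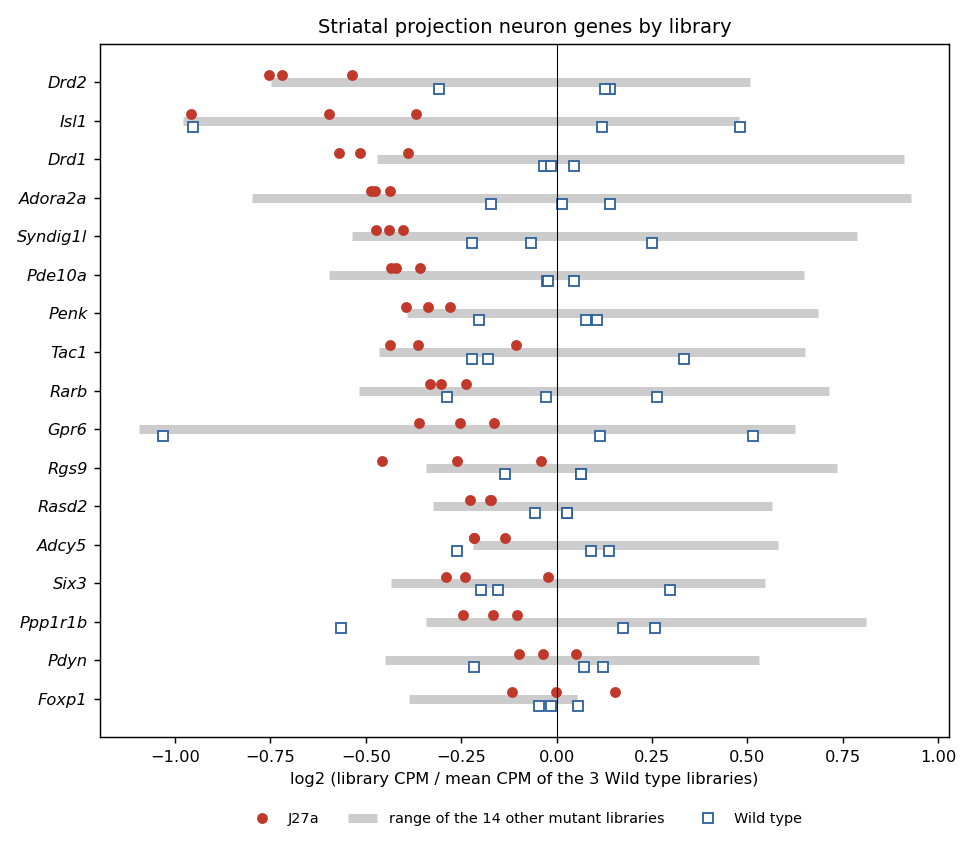
Log2 ratio of each library's CPM to the mean of the 3 Wild type libraries for 17 genes of striatal projection neurons; red circles are J27a, grey bars the range of the 14 other mutant libraries and open blue squares Wild type. Most red circles lie left of 0 (Drd2 log2 fold change -0.67), inside or at the low end of the grey bars.

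In the lists that follow, values against the mean of the other lines are set beside 50.3% positive and 49.7% negative fold changes over all genes in that comparison, of which 3.25% were higher and 2.8% lower at an unadjusted p under 0.05. Genes of cholinergic neurons leaned lower in both comparisons. All 8 members were negative against Wild type (median -0.47) and 7 of 8 against the other lines (median -0.40, 4 with an unadjusted p under 0.05). Leaving out 1 library moved the median against Wild type between -0.71 (without Wild type 1) and -0.20 (without Wild type 2), and it was -0.16 with a term for title number. Slc5a7, the choline transporter that supplies acetylcholine synthesis, had 9.22, 11.6 and 11.1 CPM in J27a and 11.1, 15.1 and 23.2 CPM in Wild type, which overlap, and 12.6 to 33.0 CPM in the other lines. Its log2 fold change was -0.63 against Wild type (-0.304 without Wild type 3) and -0.89 ± 0.20 (SE) against the other lines, with an edgeR adjusted p of 0.314. Chat, which makes acetylcholine, had 4.45, 5.03 and 5.69 CPM in J27a and 5.08, 8.25 and 8.21 CPM in Wild type.

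Thalamic genes leaned lower and cortical genes higher, and both moved with Wild type 3. All 12 thalamic members were negative (median -0.26, 0 past an unadjusted p of 0.05): Slc17a6, the glutamate transporter of subcortical neurons, had 106, 109.6 and 96.8 CPM in J27a and 126, 79.5 and 225 CPM in Wild type. All 12 forebrain glutamatergic members were positive (median 0.16, 0 past that level): Camk2a had 2324, 2306 and 2598 CPM in J27a and 2473, 2496 and 1512 CPM in Wild type. The high Slc17a6 and the low Camk2a both came from Wild type 3, and leaving libraries out one at a time moved the forebrain median between -0.03 (without Wild type 3) and 0.26 and the thalamic one between -0.52 (without Wild type 2) and -0.05 (without Wild type 3). Against the mean of the other lines the forebrain list was again positive in 12 of 12 members, with a median of 0.23 and 6 members at an unadjusted p under 0.05. Neurod6, a transcription factor of these neurons, had 56.4, 56.0 and 57.8 CPM in J27a, 59.5, 50.7 and 50.8 CPM in Wild type and 32.6 to 60.3 CPM in the other lines.

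Synaptic receptors and scaffolds were 10 positive and 6 negative of 16 against Wild type (median 0.02, from -0.01 to 0.08 with 1 library left out) and 15 positive of 16 against the other lines (median 0.10, 3 at an unadjusted p under 0.05). Shank1, a scaffold of excitatory synapses, had 534, 530.4 and 541 CPM in J27a, above 465, 502 and 224 CPM in Wild type and 319 to 505 CPM in the other lines. Grin2a had 71.3, 68.5 and 78.8 CPM in J27a and 62.7, 61.8 and 59.3 CPM in Wild type. Immediate early genes, which respond to neuronal activity, were positive in 15 of 16 members (median 0.20), with J27a 3 as the high library: Arc had 65.6, 79.9 and 177 CPM in J27a and 88.3, 121 and 66.0 CPM in Wild type. The median of the list was -0.05, -0.14 and 0.59 in the J27a libraries and 0.12, 0.22 and -0.41 in the Wild type libraries, and leaving out 1 library moved the median fold change between -0.06 (without J27a 3) and 0.37.

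Choroid plexus genes were all negative, 12 of 12, with a median of -0.54 against Wild type and -0.84 against the other lines, where 9 had an unadjusted p under 0.05. The median against Wild type was -0.84 without Wild type 2 and -0.24 without Wild type 3, and the list stood lower in Wild type 2 (-0.59, relative to the genes' medians over 20 libraries) than in any J27a library (-0.50 to -0.44). Otx2, a homeobox gene of the choroid plexus, had 3.73, 3.89 and 3.01 CPM in J27a and 5.05, 4.70 and 8.01 CPM in Wild type. Ttr, the thyroxine carrier that this tissue makes, had 366, 405 and 409 CPM in J27a, 626, 292 and 828 CPM in Wild type and 404 to 1690.1 CPM in the other lines. Wild type 2 was below J27a and Wild type 3 above. Aqp1, a water channel, had 3.16, 3.06 and 2.15 CPM in J27a and 5.32, 4.43 and 5.23 CPM in Wild type. In 11 of 12 members all J27a libraries were below the median of the other lines, a count for which the share of all genes was not computed. Ependymal genes were negative in 8 of 10 members (median -0.07), and Rsph1, a component of motile cilia, had 1.79, 2.30 and 2.28 CPM in J27a, 3.38, 3.04 and 2.58 CPM in Wild type and 2.78 to 4.54 CPM in the other lines.

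Oligodendrocyte genes were negative in 11 of 12 members against Wild type (median -0.16) and in 12 of 12 against the other lines (median -0.26, 7 at an unadjusted p under 0.05). The median against Wild type was -0.25 without Wild type 1, -0.08 without J27a 3, -0.10 without Wild type 3 and -0.67 with a term for title number. Mal, a proteolipid of compact myelin, had 239, 220.2 and 208 CPM in J27a and 246, 291 and 329.7 CPM in Wild type, and its log2 fold change of -0.40 ± 0.08 (SE) against the other lines had an edgeR adjusted p of 0.217. Opalin had 10.1, 11.7 and 12.9 CPM in J27a and 12.1, 16.3 and 16.7 CPM in Wild type, and Cldn11, which seals myelin layers, had 139.7, 136 and 116 CPM in J27a and 139.9, 159 and 139 CPM in Wild type; both overlapped. Mbp, the myelin basic protein, had 3171, 3002 and 2488 CPM in J27a and 2552, 3336 and 2379 CPM in Wild type and was the positive member. Astrocyte, microglial and endothelial genes had medians of -0.02, -0.01 and 0.01, and of their members only Esam, an endothelial adhesion molecule, had an unadjusted p under 0.05, at 13.99, 14.3 and 13.7 CPM in J27a and 11.5, 12.8 and 6.94 CPM in Wild type; its log2 fold change of 0.42 turned to -0.086 with a term for title number.

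**Figure D5:**
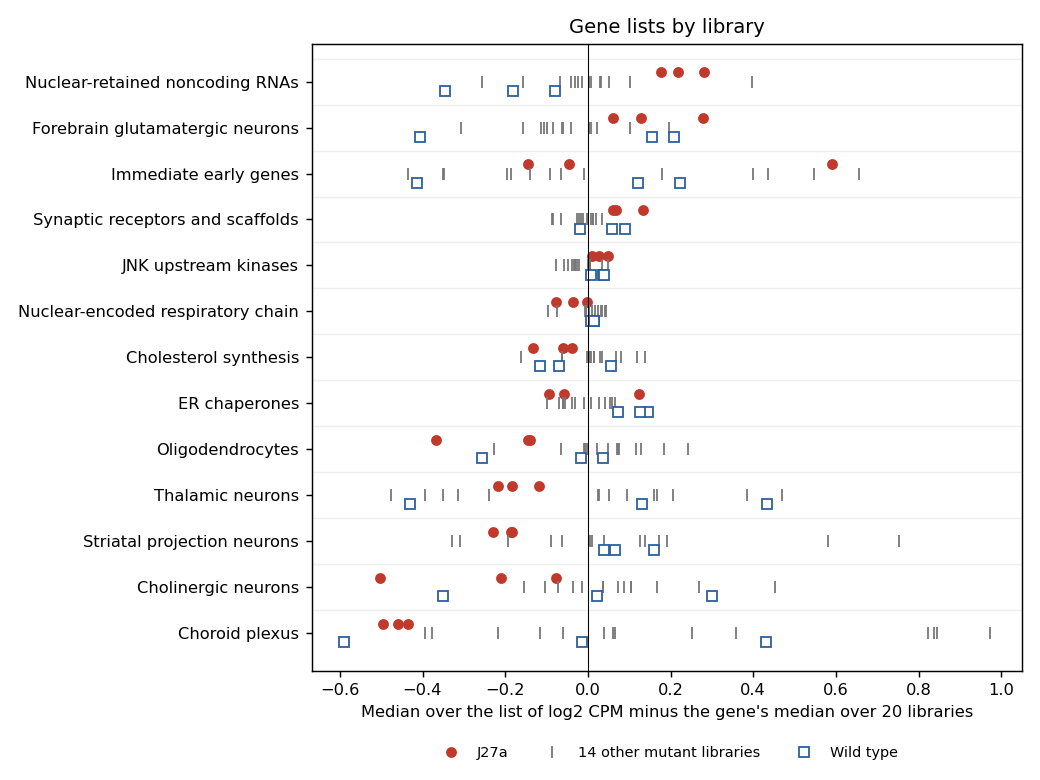
Median over each of 13 gene lists of log2 CPM minus the gene's own median over 20 libraries; red circles are J27a, grey ticks the 14 other mutant libraries and open blue squares Wild type. J27a sits low for choroid plexus (-0.50 to -0.44) and high for nuclear-retained noncoding RNAs (0.18 to 0.28), and Wild type spreads widely in the thalamic and forebrain lists. The list of noncoding RNAs was chosen after its values had been seen.

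Chaperones of the endoplasmic reticulum were negative in 11 of 13 members against Wild type (median -0.15), and Manf, a secreted stress factor, had 34.2, 36.8 and 34.6 CPM in J27a and 41.8, 40.9 and 41.7 CPM in Wild type. Pdia3, a disulfide isomerase, had 228, 216 and 208 CPM in J27a and 237, 234 and 258 CPM in Wild type. With a term for title number the log2 fold change of Manf turned to 0.057 and the median of the list was -0.04. In the other lines Manf ranged from 32.0 to 41.9 CPM, which takes in both groups, and against those lines the list had 8 positive and 5 negative members with a median of 0.01. Nuclear-encoded genes of the respiratory chain were negative in 13 of 20 (median -0.04); Uqcrb, a subunit of complex III, had 41.0, 45.4 and 37.9 CPM in J27a and 46.0, 47.1 and 70.0 CPM in Wild type. Cholesterol synthesis genes, 13 negative of 18 against Wild type, were negative in 18 of 18 against the other lines with a median of -0.10.

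Of 16 clock genes 1 was higher and 1 lower without overlap, and of 10 interferon genes 2 were higher and 0 lower, beside 4.16% higher and 3.85% lower of all genes. Per3, a repressor of the circadian clock, had 39.2, 45.5 and 43.2 CPM in J27a and 35.2, 33.7 and 36.2 CPM in Wild type (log2 fold change 0.28, edgeR unadjusted p = 0.0032, adjusted 0.928). Nr1d1, the clock repressor REV-ERBα, had 125, 142 and 132 CPM in J27a and 157, 156 and 151 CPM in Wild type, and in the other lines 115 to 148 CPM. The clock list as a whole had 9 positive and 7 negative members with a median of 0.03. Ifit1 and Ifit3, antiviral genes induced by interferon, were higher in J27a without overlap, at 4.45, 4.23 and 4.15 CPM (Ifit1) and 13.2, 15.04 and 13.7 CPM (Ifit3), against 2.70, 3.28 and 3.13 CPM (Ifit1) and 11.5, 11.1 and 11.1 CPM (Ifit3) in Wild type; the list had 6 positive and 4 negative members. Thyroid hormone genes were 8 positive and 4 negative (median 0.06), with 0 past an unadjusted p of 0.05; Dio2, which activates thyroid hormone, had 99.8, 89.1 and 99.2 CPM in J27a and 90.8, 98.0 and 88.9 CPM in Wild type. Over the 43 lists with members tested, none held a member past the adjusted threshold, 25 had a median within 0.1 of 0, 8 were higher by 0.1 or more and 10 lower by 0.1 or more.

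Against the mean of the 5 other mutant lines, edgeR called 3 genes of 16063 (0.0187%), all higher in J27a. At an unadjusted p under 0.05 there were 972 genes (6.05%), 522 higher (3.25%) and 450 lower (2.8%). Gt(ROSA)26Sor, the Rosa26 noncoding RNA whose annotation overlaps Thumpd3 on the other strand so that their reads may be mixed, had 7.14, 5.44 and 6.87 CPM in J27a and 5.70, 3.99 and 5.91 CPM in Wild type. It had 0.0825 to 0.310 CPM in J2 lf/lf and 5.04 to 6.61 CPM in the remaining mutant lines. The log2 fold change of 1.10 ± 0.15 (SE; edgeR adjusted p = 0.0036) was 0.13 with an adjusted p of 0.957 once J2 lf/lf was left out of the mean, and 0.32 (adjusted p = 0.959) against Wild type.

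The other 2 called genes belong to skeletal muscle. Tnnc2, troponin C of fast muscle, had 15, 31 and 7 counts (0.538, 1.17 and 0.284 CPM) in J27a against 1, 7 and 0 counts in Wild type and at most 4 in any library of the other lines; its log2 fold change against the other lines was 4.16 ± 0.65 (SE; edgeR adjusted p = 0.017). Ckm, the muscle creatine kinase, had 15, 134 and 11 counts (0.538, 5.06 and 0.447 CPM) in J27a, 1, 0 and 1 counts in Wild type and 0 to 30 counts in the other lines, with the 30 in J17a 2. Its fitted log2 fold change against the other lines was 5.53 (edgeR adjusted p = 0.017), a value that depends on the prior count and is no bound. Without J27a 2 it was 3.51 with an adjusted p of 0.633. Myh4, a fast muscle myosin, had 0.861, 9.03 and 0.732 CPM in J27a and 0.341, 0.443 and 0.833 CPM in Wild type, so 1 library held most of it.

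A list of 16 skeletal muscle genes, chosen after these values had been seen and not tested, had 15 members tested, of which 14 were positive against Wild type. The summed level of the list was 80.6, 110.6 and 70.0 CPM in J27a, 66.7, 76.7 and 70.9 CPM in Wild type and 68.6 to 82.1 CPM in the other lines. J27a 3 was therefore within the range of Wild type in the sum. The part of muscle RNA in the calls for Ckm and Tnnc2 was not tested.

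In 25 genes (0.156%) every J27a library was below each of the 17 others, and in 21 (0.131%) above each of them; the genes named here from these were chosen after their values were seen. Cat, the catalase that breaks down hydrogen peroxide, had 45.9, 49.4 and 49.1 CPM in J27a, 55.9, 52.7 and 59.1 CPM in Wild type and 51.1 to 62.0 CPM in the other lines. Tacr1, the substance P receptor, had 8.97, 9.14 and 8.21 CPM in J27a, 10.3, 10.02 and 12.6 CPM in Wild type and 10.4 to 15.6 CPM in the other lines. Atic, an enzyme of purine synthesis, had 26.3, 26.8 and 30.1 CPM in J27a and 32.3, 33.6 and 33.7 CPM in Wild type. For Cat and Tacr1 the gap to the nearest other library is small beside the range of the other lines, and 0 of the 25 passed the adjusted threshold against those lines.

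On the high side, Srgap3, a regulator of actin in neurites, had 524, 511 and 506 CPM in J27a, 458, 467 and 439 CPM in Wild type and 405 to 491 CPM in the other lines. Gas7, an actin-binding protein of neurons, had 513, 503 and 517 CPM in J27a and 492, 500.1 and 412 CPM in Wild type. Bsn, the presynaptic scaffold Bassoon, had 933, 913 and 993 CPM in J27a and 873, 869 and 566 CPM in Wild type. Nxf1, which exports messenger RNA from the nucleus, had 54.0, 55.5 and 53.3 CPM in J27a and 47.9, 43.4 and 47.3 CPM in Wild type. Of the 21 genes only Tnnc2 passed the adjusted threshold against the other lines.

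The line whose code differs from J27a in its last letter, J27b, was compared in the same fit, and edgeR called 0 of 16063 genes (0%) with 930 (5.79%) at an unadjusted p under 0.05; 49.7% of all fold changes were positive and 50.3% negative. The smallest adjusted p was 0.0656, for Gbx2, a homeobox gene of the thalamus and of cholinergic interneurons, with 2.08, 2.91 and 2.03 CPM in J27a, 3.01 to 4.74 CPM in Wild type and 7.99 to 8.94 CPM in J27b. Its log2 fold change of J27a minus J27b was -1.87. Thalamic genes as a list had a median of -0.59 in this comparison. Mapk9 differed by 0.11 (interval -0.46 to 0.68, edgeR adjusted p = 0.992). J27a, at 292 to 306 CPM, lay above J27b, at 274 to 278 CPM, without overlap. The interval rests on the spread within all 7 groups, J2 lf/lf (58.1 to 177 CPM) among them.

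Genes beside Mapk9 were examined because DNA around an edited gene can come from another strain, though the labels do not state what the code J27a stands for. Of the 100 tested genes nearest to it on chromosome 11 (50 on each side, 35797382 to 53891660), 0 passed the adjusted threshold, 46 were positive and 54 negative, and the median log2 fold change was -0.02. At an unadjusted p under 0.05 there were 6 (6%), beside 4.84% of all genes. They included Ifi47, an interferon-induced GTPase, at 1.04, 0.793 and 0.691 CPM in J27a and 1.47, 1.27 and 1.47 CPM in Wild type, and Pttg1 (securin), at 19.2, 23.6 and 21.01 CPM in J27a and 19.5, 18.6 and 15.2 CPM in Wild type. By gene span the medians were small: the 3066 genes of shortest span had a median log2 fold change of 0.02 (55.2% positive) and the 3066 of longest span -0.01 (46.2% positive). Against the other lines, the genes with the shortest transcripts had a median of -0.031 and those with the longest 0.033. In Wild type 3 the shortest-transcript genes stood at -0.093 and the longest at 0.077, relative to the genes' medians over 20 libraries on the log2 scale.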

How the data were processed

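RNA was taken with an RNeasy kit and DNase, enriched for poly(A) and sequenced as read pairs, per the labels' protocols. The deposited table holds the authors' estimated counts per gene and, separately, the authors' TPM per gene; per the submitters' processing notes the tools include cutadapt and RSEM and the build is mm10, with versions and annotation not given in the sources used here. Estimated counts (4.11% not whole) were rounded. With edgeR 4.0.16 in R 4.3.3, genes were kept by filterByExpr, scaled by TMM and fitted in a robust quasi-likelihood model of all 20 libraries with a mean per group (common dispersion 0.0144); p-values are two-sided, adjusted by Benjamini-Hochberg over 16063 genes in each of 3 contrasts, with a threshold of 0.05. Totals ran from 21395041 to 33828755 and limit precision for genes of few counts. Alternatives were DESeq2 1.42.0, limma 3.58.1 on log2(TPM + 1) and log2(TPM + 0.1), other scaling, no filter, fewer groups, a term for title number, a replicate block and leaving out libraries. The scripts were checked on simulated data. Genes were named by these rules: those called; the 12 of smallest p and the 5 of largest fold in each direction against Wild type with a mean log2 CPM of at least 1 and no overlap; Mapk8, Mapk9, Mapk10 and Rn45s; up to 4 members a list with an unadjusted p under 0.05. A few genes are not reported here. Other list members were named after their values were seen. Members and lists were chosen with earlier results of these data known. Positions and exon sequences come from GENCODE M21, which gave a position for 15327 of the genes tested. Of 44 lists 43 had members tested; the mitochondrially encoded genes are not analysed here.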

Additional observations from a re-analysis of the deposited data

Results flagged for a closer look

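For 3 genes the difference between J27a and the mean of the 5 other mutant lines passed the test across all genes (edgeR, adjusted p under 0.05), which is what brought them up here. Ckm differed by 5.53 on the log2 scale, Tnnc2 by 4.16 and Gt(ROSA)26Sor by 1.10. For Gt(ROSA)26Sor the J2 lf/lf libraries (0.0825 to 0.310 CPM) set the difference, since the mean without them gave 0.13. For Ckm, J27a 2 held 134 of the counts, against 15 and 11 in the other J27a libraries. Tnnc2 was above each of the 17 other libraries in all 3 J27a libraries, on 7 to 31 counts.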

How the results depend on the processing

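Against Wild type the count of genes called, 0 with edgeR, was 5 with DESeq2 (Rn45s, Lars2, Malat1, Meg3 and 9530091C08Rik), 1 with only the groups compared in the fit (Rn45s, adjusted p = 0.0417), and 0 to 3 when 1 library was left out, the 3 without Wild type 1 (Miat among them, adjusted p = 0.0239); DESeq2 size factors, no filter, both limma scales, Rn45s left out, the title-number term and leaving out both libraries rich in pituitary transcripts gave 0. Against the other lines the count of 3 was 15 with DESeq2, 9 with only the groups compared, 0 with limma on log2(TPM + 0.1), 0 with the title-number term, 0 without J2 lf/lf in the mean, 5 without the pituitary-rich libraries, and 1 to 12 without 1 library: 1 without J27a 2 or J17b 2, 5 without J27a 3 and 12 without Wild type 3. Against J27b the count of 0 was 1 with DESeq2, 1 without the filter, 1 with the title-number term and 125 (57 higher) with only the groups compared. The cause was not tested. Of 956 fold changes of 60 named genes over 16 settings, 943 kept direction and side of the threshold, 7 passed it and 6 changed sign: without Wild type 3 Mapk8 (0.057; -0.127 to 0.057 over the libraries left out) and Mapk9 (0.003; -0.144 to 0.003), and with the title-number term, which rests on J17a as the one group with both kinds of number, Mapk10 (-0.111), Manf (0.057), Drd2 (0.285) and Esam (-0.086). That term also turned the median of the striatal list to 0.45. Replicate numbers did not pair the samples (r of same-numbered deviations -0.041, -0.14 and -0.065), and the replicate block gave 0 genes against Wild type, 3 against the other lines and 0 against J27b. With 3 libraries a group an exact test of 1 gene cannot go below 0.1. Genes near 1 CPM rest on few counts, and differences in exon use cannot be seen in values per gene.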
